A study of Mus musculus with 12 samples.

Results

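Translation initiation factor mRNA was examined in P14 cytotoxic T lymphocytes (CTL), mouse CD8+ T cells that carry a transgenic T cell receptor (TCR) for the gp33-41 peptide of lymphocytic choriomeningitis virus. Rows of the expression table whose gene symbol begins with Eif and a digit from 1 to 6 were taken, and symbols beginning with Eif2ak, which belong to kinases, were left out. The rule found 50 of the 11022 genes. Of these, 47 were counted below as initiation factors and partners. They include Eif4a3, whose product belongs to the exon junction complex rather than to initiation. The other 3 are Argonaute genes that carry the old symbols Eif2c1, Eif2c2 and Eif2c3 and are described apart. The cultures formed 4 groups with 3 replicates each, and RNA was sequenced from each culture. All groups received 20 ng/mL of IL-2, the cytokine in which the cells had been expanded. The unstimulated group got no further peptide. The TCR group was restimulated with 100 ng/mL of gp33-41 for 4 h. The PI3Kdi group got the same peptide with 10 µM IC87114, an inhibitor of the PI3K catalytic subunit p110δ, and the MEKi group got it with 2 µM PD184252, an inhibitor of the kinase MEK upstream of ERK. Per the study's methods the mice were female, lymph nodes or spleens of 3 mice gave the 3 replicates, and DMSO was the vehicle control. All CTL came from the same TCR transgenic strain and had been expanded in culture after an earlier exposure to the peptide. The methods list no cell sorting for these cultures, and whether all cells shared 1 specificity was not tested.

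Initiation is the step of translation in which the small ribosomal subunit is loaded with initiator tRNA, brought to the capped end of the mRNA and moved to the start codon. Factor eIF2 carries the initiator tRNA, eIF2B recharges eIF2 with GTP, eIF3 is the scaffold on the small subunit, and eIF4E, eIF4G and eIF4A form the complex that binds the cap and unwinds the mRNA. Activated T cells increase protein synthesis strongly, and the control of cap binding by eIF4E-binding proteins downstream of mTOR, and of eIF4E phosphorylation by the MNK kinases downstream of ERK, are textbook routes from the antigen receptor to this machinery. The sequencing measured mRNA and not protein, phosphorylation or translation.

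The markers of CD8+ T cells in the list used here were all expressed. Cd8a lay between 213 and 430.3 FPKM over the 12 libraries. FPKM is the number of fragments scaled to transcript length and to library size, here after scaling of the libraries by the authors with the TMM method. Of 10 markers of other cells, only Cd4 and Itgax were among the rows of the table, and their summed level ranged from 0.93 to 1.44 FPKM in unstimulated cells, from 3.16 to 3.3 in the TCR group, from 2.71 to 4.25 with PI3Kdi and from 0.71 to 1.04 with MEKi. Their part in the results was not tested. In bulk samples, a change in the number of cells of a type and a change in RNA per cell cannot be told apart. Summed FPKM over all genes was 470420 to 495945 in unstimulated libraries, 620715 to 666922 in TCR libraries, 549897 to 585849 with PI3Kdi and 524343 to 539350 with MEKi. Ifng alone accounted for 28243 to 31000 FPKM in the TCR libraries, against 68.6 to 74.9 in unstimulated ones. Because the totals differed, every direction was also examined on a TPM scale, in which each library is set to the same FPKM sum. On the deposited scale the median log2 fold change of all genes was -0.01 after TCR stimulation, 0.02 for PI3Kdi against TCR, 0.01 for MEKi against TCR and -0.01 for MEKi against PI3Kdi. On the TPM scale these medians were -0.41, 0.19, 0.26 and 0.07.

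The 47 genes were abundant. The median of their means over the 12 libraries was 126 FPKM, against 10.9 FPKM for all genes. The highest level was that of Eif5a, which encodes the hypusine-containing factor eIF5A, at 897 FPKM, followed by the helicase gene Eif4a1 at 825 FPKM and the scanning factor gene Eif1 at 502 FPKM. At the other end were Eif5a2, a paralogue of Eif5a, at 2.47 FPKM and Eif4ebp3, which encodes an eIF4E-binding protein. These were the 2 members with a mean under 10 FPKM, and 25 members had a mean over 100 FPKM. Summed over the 47 genes, the level was 6109, 6077 and 6332 FPKM in the unstimulated cultures and 8308, 7961 and 7954 FPKM in the TCR cultures. It was 7217, 6999.8 and 6899 FPKM with PI3Kdi and 7034, 7278 and 7219 FPKM with MEKi. As a share of the FPKM sum of the library, the same genes made up 1.29% ± 0.00786 (SD, n = 3) in unstimulated cells, 1.26% ± 0.0185 in the TCR group, 1.25% ± 0.0159 with PI3Kdi and 1.35% ± 0.00433 with MEKi. The sum thus rose on the deposited scale after TCR stimulation with no overlap between groups, whereas the shares of the library overlapped between those groups and were highest with MEKi.

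**Figure D1:**
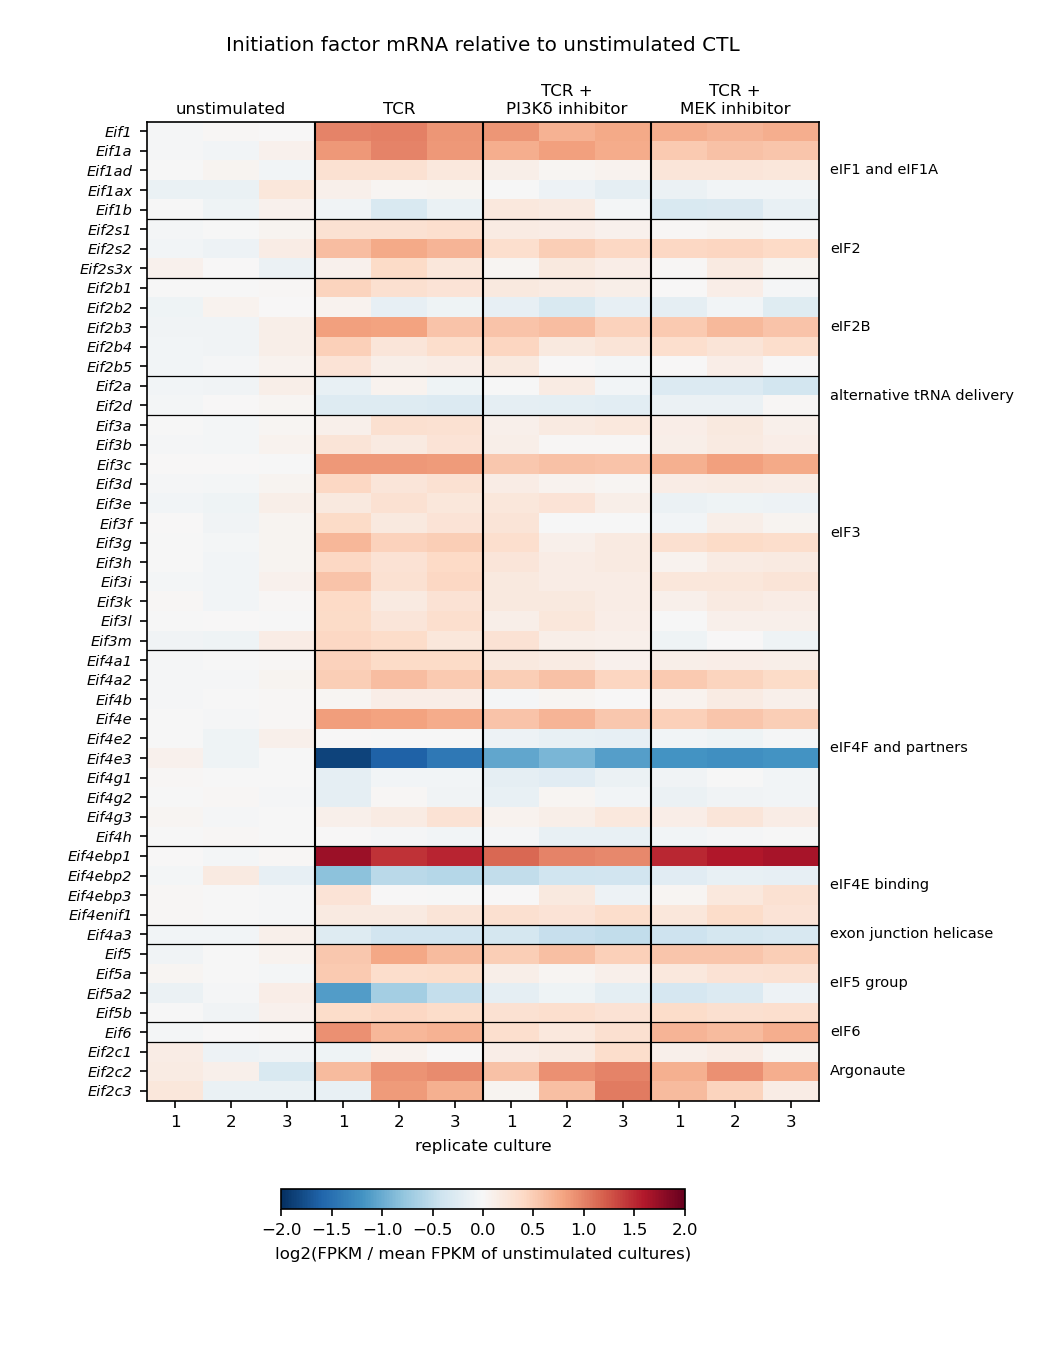
Level of each of the 50 genes (rows, grouped by role) in each of the 12 cultures (columns, 3 per group), as log2 of its FPKM over the mean of the 3 unstimulated cultures, on the deposited scale. Eif4ebp1 stands out as the strongest rise and Eif4e3 as the strongest fall after TCR stimulation, and the 12 eIF3 rows are pale red in all TCR cultures, although on the TPM scale the fold changes of most eIF3 genes were below 0.

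The first comparison asked what antigen receptor restimulation did to these mRNAs. On the deposited scale 32 of the 47 genes rose (68.1%, against 33.6% of all genes) and 5 fell (10.6%, against 34.9% of all genes) at an adjusted p under 0.05 in limma. The remaining 10 did not pass. The median log2 fold change of the 47 genes was 0.29. With more than a 2-fold change, 1 member rose (8.87% of all genes) and 1 fell (11.1% of all genes). These were Eif4ebp1 and Eif4e3. Members had a smaller error than genes at large, with a median standard error of 0.06 against 0.10 on the log2 scale, and a gene with a smaller error passes the test at a smaller change. On the TPM scale 10 of the 47 rose (15.3% of all genes) and 22 fell (60.9% of all genes), with a median of -0.13, so that the direction of the median member depended on the scale. On both scales 36 of the 47 genes lay above the median of all genes. That agreement was fixed in advance, since TPM scaling shifts every gene by about the same amount. After quantile normalisation 33 of the 47 lay above the median of all genes. The genes that rose on the deposited scale, under TPM scaling and under quantile normalisation numbered 10, namely Eif1, Eif1a, Eif2b3, Eif2s2, Eif3c, Eif3g, Eif4e, Eif4ebp1, Eif5 and Eif6. All 5 that fell did so on each of these scales, namely Eif2d, Eif4a3, Eif4e3, Eif4ebp2 and Eif5a2. TPM scaling moved the fold changes down in this comparison, so a fall could hardly be lost on that scale.

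The eIF4E-binding proteins hold eIF4E away from eIF4G until they are phosphorylated, and their mRNAs moved in opposite directions. Eif4ebp1 was at 58.5, 56.8 and 59 FPKM in unstimulated cells and at 190.1, 158 and 167 FPKM in TCR-stimulated cells. The gene lies at chr8:27260327-27275656 on GRCm38.p6. All TCR cultures lay far above all unstimulated ones. The log2 fold change was 1.56 (SE 0.07, adjusted p = 4.29e-11), and 1.14 on the TPM scale. Eif4ebp2, which encodes a related binding protein, was at 46.2, 53.3 and 42.3 FPKM in unstimulated cells and at 26.7, 32.6 and 31.7 FPKM after stimulation. The groups did not overlap, and the log2 fold change was -0.64 (SE 0.09, adjusted p = 9.51e-06), or -1.05 on the TPM scale. Eif4ebp3 stayed near 7.04 ± 0.131 FPKM (SD, n = 3) in unstimulated and 7.55 ± 0.87 FPKM in stimulated cells and did not pass the test (log2 fold change 0.09, 95% interval -0.13 to 0.32, adjusted p = 0.445), but passed as a fall on the TPM scale (-0.31, adjusted p = 0.0123). Of the 100-base stretches of its transcripts, 62.8% are shared with another gene annotated on the same strand, so its counts are uncertain. Eif4enif1, which encodes a transporter that carries eIF4E into the nucleus, rose by 0.21 on the log2 scale, and lay at -0.21 on the TPM scale.

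**Figure D2:**
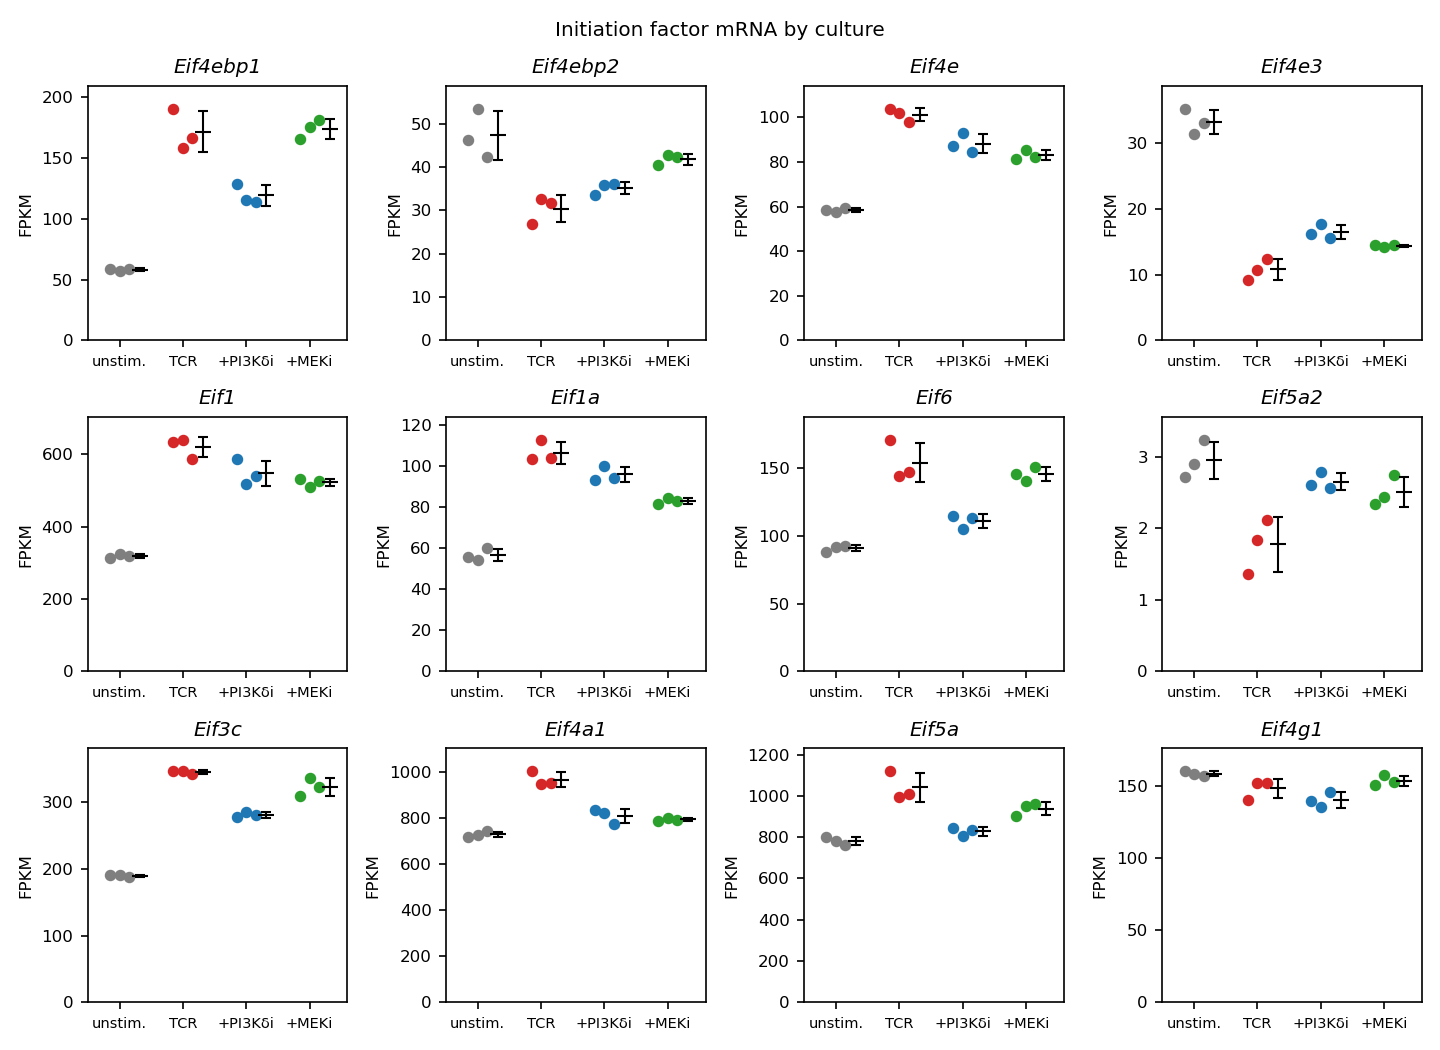
FPKM of 12 genes in each culture (points), with mean and SD of the 3 cultures of each group (black bars), on axes that start at 0. Eif4ebp1 rose from about 58.1 to 172 FPKM after TCR stimulation and lay at 119 FPKM with PI3Kdi and at 174 FPKM with MEKi, while Eif4ebp2, Eif4e3 and Eif5a2 ran the other way. Eif4a1 and Eif5a are higher in TCR cultures on this scale, a difference that vanishes on the TPM scale.

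Among the cap-binding proteins the family members also diverged. Eif4e, which encodes the main cap-binding protein, was at 58.4, 57.5 and 59.4 FPKM before and at 104, 102 and 98 FPKM after stimulation. The groups were far apart relative to their spread (log2 fold change 0.79 with SE 0.05, adjusted p = 2.18e-09, and 0.38 on the TPM scale). Eif4e3, which encodes a divergent member of the same family, was at 35.2, 31.4 and 33 FPKM before and at 9.22, 10.8 and 12.4 FPKM after stimulation. The gene lies at chr6:99621879-99692873 on GRCm38.p6. Every stimulated culture lay below every unstimulated one, and the log2 fold change of -1.62 (SE 0.09, adjusted p = 6.45e-10) was the largest fall of the 47 genes on the deposited scale. Of the 100-base stretches of its transcripts, 7.5% are shared with an overlapping gene, which covers 373 of its 2515 exon bases. The related Eif4e2 did not pass the test, with a log2 fold change of 0.00 (95% interval -0.12 to 0.12), but passed as a fall on the TPM scale (-0.41). Of the scaffold genes, Eif4g1 was at 160.1, 158 and 157 FPKM before and 140.4, 152 and 152 FPKM after stimulation. It did not pass on the deposited scale (log2 fold change -0.10, adjusted p = 0.0922). It passed as a fall with TPM scaling (-0.51, adjusted p = 1.26e-06) and with quantile normalisation (-0.33, adjusted p = 0.000149). Eif4g2 did not pass on the deposited scale either (-0.08), but passed as a fall with TPM scaling (-0.49) and with quantile normalisation (-0.31). Eif4g3 rose by 0.19 but lay at -0.23 on the TPM scale. The helicase genes Eif4a1 and Eif4a2 rose by 0.41 and 0.54 on the deposited scale. Eif4a1 went from 729 ± 12.3 to 967 ± 32.1 FPKM (SD, n = 3), a change that changed sign with TPM scaling (-0.01) and with quantile normalisation (-0.03). Of the 100-base stretches of Eif4a1 transcripts, 22.6% are shared with other loci, most of them with a pseudogene. Eif4a2 went from 66.7 ± 2.17 to 97.4 ± 4.7 FPKM and did not pass on the TPM scale (0.13, adjusted p = 0.0834). The helper genes Eif4b and Eif4h did not pass on the deposited scale (0.10 and -0.02) but passed as falls with TPM scaling (-0.31 and -0.43) and with quantile normalisation (-0.15 and -0.25). Eif4a3, whose product belongs to the exon junction complex deposited by splicing rather than to initiation, fell from 141 ± 9.19 to 111 ± 5.44 FPKM (log2 fold change -0.34 with SE 0.06, adjusted p = 0.000144).

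The genes for scanning and start codon choice included some of the strongest rises. Eif1, whose product keeps the scanning ribosome open, was at 313, 324 and 319.7 FPKM before and at 634, 639 and 587 FPKM after stimulation. The log2 fold change was 0.96 (SE 0.06, adjusted p = 1.11e-09), just short of 2-fold, and 0.54 on the TPM scale. Of the 100-base stretches of Eif1 transcripts, 11.2% are shared with other loci. Eif1a, which encodes a partner of eIF1 on the small subunit, was at 55.9, 54.5 and 59.9 FPKM before and at 103, 113 and 104 FPKM after stimulation (log2 fold change 0.91 with SE 0.05, adjusted p = 1.16e-09). Their close relatives did not pass on the deposited scale. Eif1b was at 42.2 ± 2.41 and 37.8 ± 3.14 FPKM (SD, n = 3), in groups that overlapped (log2 fold change -0.16, adjusted p = 0.0863), and Eif1ax did not pass (log2 fold change 0.08, adjusted p = 0.407). Both passed as falls with TPM scaling (-0.57 and -0.34) and with quantile normalisation (-0.23 and -0.16).

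All 3 eIF2 subunit genes rose on the deposited scale (33.6% of all genes), by 0.24 to 0.69. The smallest of these changes was that of Eif2s3x, which lay at -0.18 on the TPM scale. Of the 100-base stretches of its transcripts, 33.7% are shared with another locus, so its counts are uncertain. Eif2s2, for the beta subunit, was at 114, 111 and 132 FPKM before and 183, 202 and 189 FPKM after stimulation (log2 fold change 0.69 with SE 0.07, adjusted p = 2.49e-07), and kept the direction on the TPM scale (0.28). Eif2s1, for the alpha subunit that the eIF2 kinases phosphorylate, went from 80.2 ± 2.96 to 99.7 ± 0.977 FPKM (SD, n = 3) with a log2 fold change of 0.31, which was -0.10 on the TPM scale. Of the 5 genes for eIF2B, the exchange factor of eIF2, 4 rose on the deposited scale (33.6% of all genes). Eif2b2 did not pass (-0.06), although it passed as a fall on the TPM scale (-0.47). Eif2b3 showed the largest change of these, from 12.1, 12.1 and 13.8 to 22.4, 22 and 18.7 FPKM (log2 fold change 0.73 with SE 0.08, adjusted p = 1.46e-06, and 0.32 on the TPM scale). Eif2b5, for the catalytic subunit, went from 39 ± 1.88 to 44.1 ± 2.63 FPKM, with a log2 fold change of 0.18 (SE 0.07, adjusted p = 0.0344) that lost its call without unstimulated replicate 1 (0.15), unstimulated replicate 2 (0.17), TCR replicate 1 (0.13) or TCR replicate 3 (0.19) and changed sign with TPM scaling (-0.23, adjusted p = 0.00167). Of the genes for alternative delivery of tRNA to the ribosome, Eif2d fell from 26.2 ± 0.8 to 21.9 ± 0.0473 FPKM (log2 fold change -0.26 with SE 0.06, adjusted p = 0.000817) and Eif2a did not pass (-0.06), although it passed as a fall on the TPM scale (-0.47).

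All 12 eIF3 rows rose on the deposited scale (33.6% of all genes), with log2 fold changes from 0.24 to 0.86 and a median of 0.32. On the TPM scale only Eif3c and Eif3g also passed as rises (15.3% of all genes). Eif3b, Eif3e and Eif3k passed as falls there (60.9% of all genes). Eif3c stood apart from the other subunits. It was at 190.3, 190.3 and 188 FPKM before and at 346, 346 and 341 FPKM after stimulation (log2 fold change 0.86 with SE 0.05, adjusted p = 3.37e-10, and 0.45 on the TPM scale). Eif3a, for the largest subunit, was at 131, 128 and 136 FPKM before and at 141, 165 and 163 FPKM after stimulation, with a log2 fold change of 0.24 (adjusted p = 0.00279) that was -0.17 on the TPM scale. The ratio of Eif3c to Eif3a within each culture does not depend on a factor applied to the whole library. It was 1.45, 1.49 and 1.38 in unstimulated cells and 2.46, 2.09 and 2.09 in the TCR group, with no overlap between the groups. In the TCR group 8 of the 12 eIF3 genes were highest in replicate 1, as were 25 of all 47 members. In the unstimulated group 10 of the 12 were highest in replicate 3, as were 32 of the 47. These libraries had the largest FPKM sums of their groups (666922 and 495945). The same was not counted over all genes, so it is not shown to be particular to eIF3. Of the 100-base stretches of Eif3d transcripts, 32% are shared with a gene on the opposite strand, which covers 2151 of its 4968 exon bases. Its counts are therefore uncertain.

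**Figure D3:**
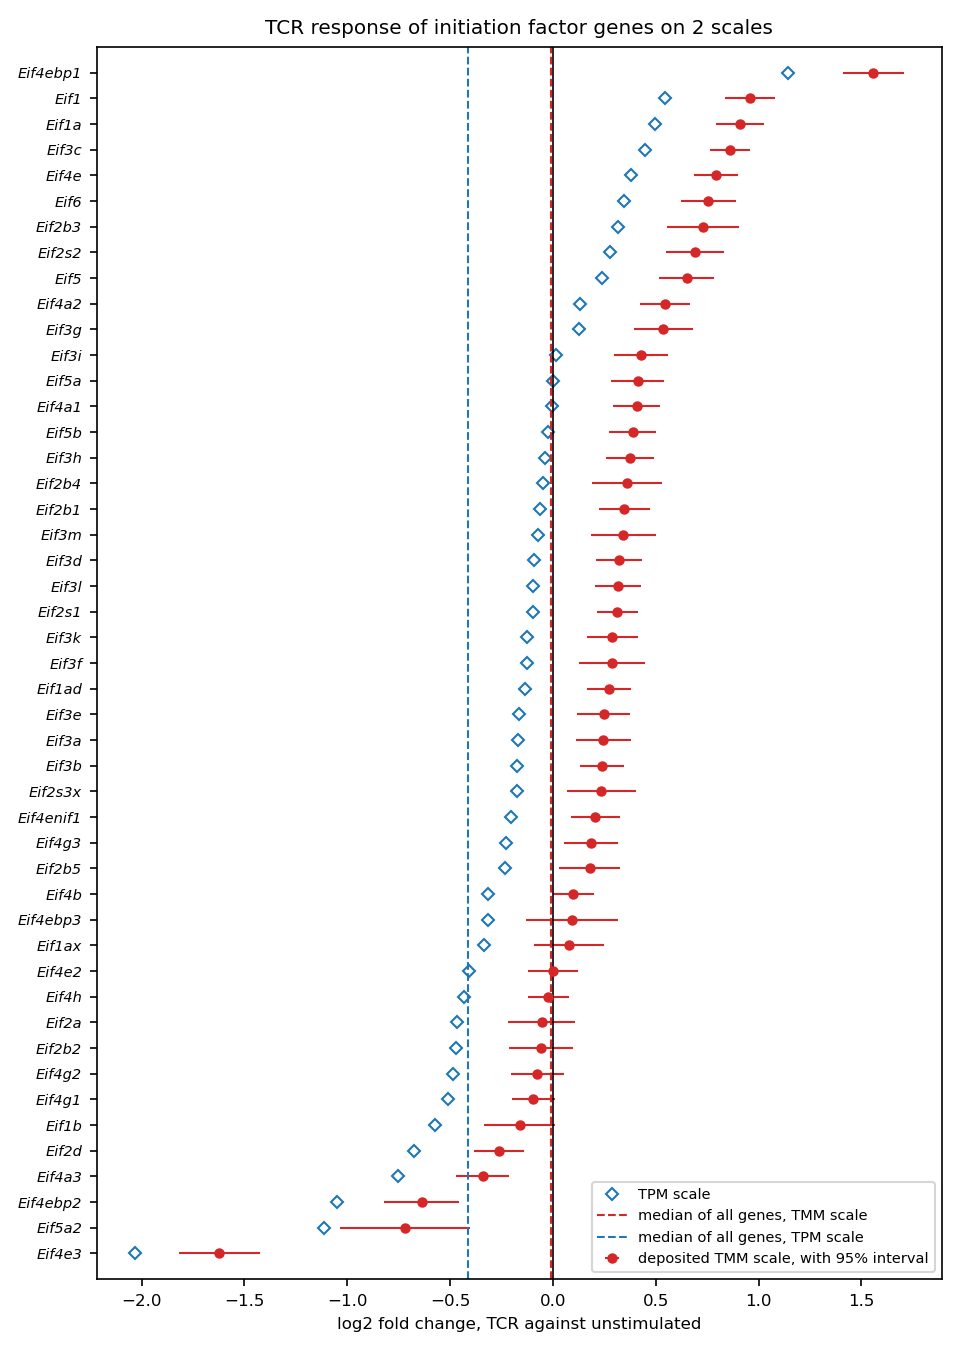
Log2 fold change of the 47 genes after TCR stimulation, on the deposited scale (red, with 95% intervals) and on the TPM scale (blue), with the median of all genes on each scale as a dashed line. Every gene lies lower on the TPM scale by about the same amount, so genes between Eif3i and Eif2b5 change sign or lie near 0 there, whereas Eif4ebp1 stays at 1.14 and Eif4e3 at -2.03.

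Of the late-acting factors, Eif5, for the GTPase-activating protein of eIF2, was at 90, 94.2 and 99.7 FPKM before and at 138, 162 and 146 FPKM after stimulation (log2 fold change 0.65 with SE 0.06, adjusted p = 3.1e-07, and 0.24 on the TPM scale). Eif5b, for the factor that joins the subunits, rose by 0.39 on the deposited scale and lay at -0.02 on the TPM scale. Eif5a went from 781 ± 19.7 to 1041 ± 68.9 FPKM (SD, n = 3), a log2 fold change of 0.41 that had vanished on the TPM scale (adjusted p = 0.982). Its much less abundant paralogue Eif5a2 was at 2.71, 2.9 and 3.23 FPKM before and at 1.36, 1.84 and 2.12 FPKM after stimulation. Those groups did not overlap (log2 fold change -0.72 with SE 0.15, adjusted p = 0.000559), but the level is low. Eif6, whose product keeps free large subunits from joining small ones, was at 88.6, 91.9 and 92.8 FPKM before and at 171, 145 and 147 FPKM after stimulation (log2 fold change 0.76 with SE 0.06, adjusted p = 5.79e-08, and 0.34 on the TPM scale).

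Promoter letters were compared because many members moved together. RefSeq promoter windows on GRCm38.p6, from 250 bases before to 50 bases after each annotated start, matched 37 of the 47 genes. No sequence was used for Eif1a, Eif2b3, Eif3e, Eif3h, Eif3i, Eif4e3, Eif4ebp1, Eif4ebp3, Eif4g2 and Eif6. The E box CACGTG, which MYC and related factors bind and which reads the same on both strands, was in the windows of 10 of these genes (27%). It was in 12.2% of the 8332 genes of the expression table that matched a window, and in 7.15% of all 32851 windows. The 10 genes were Eif1b, Eif3a, Eif3f, Eif3k, Eif4a1, Eif4e, Eif4g1, Eif4h, Eif5a and Eif5a2. On the deposited scale 6 of them rose and 1 fell after TCR stimulation, with a median log2 fold change of 0.27, against 19 that rose and 3 that fell of the 27 without the letters, with the same median of 0.27. The letters TGACGTCA of the cyclic AMP response element were in none of the 37 genes and in 3.83% of the 8332 genes of the table. The shorter TGACGT, part of the former, was on either strand in 7 of the 37 genes (18.9%) and in 14.1% of the genes of the table. A match is a description of the letters in these windows only. The E box is shown for Eif4a1 and Eif5a, 2 of the most abundant members, and the shorter letters for Eif4ebp2, the binding protein gene that fell. Capitals mark the letters searched, read 5′ to 3′ on the strand of the gene. The first stretch lies at chr11:69672567-69672652 (minus strand), outside annotated genes. The next lies at chr11:69921415-69921500 (minus strand), upstream of annotated Eif5a starts and inside an intron of a longer gene model, and the last at chr10:61452810-61452895 (minus strand), outside annotated genes.
Eif4a1: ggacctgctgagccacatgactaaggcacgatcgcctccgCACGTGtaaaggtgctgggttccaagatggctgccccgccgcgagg
Eif5a: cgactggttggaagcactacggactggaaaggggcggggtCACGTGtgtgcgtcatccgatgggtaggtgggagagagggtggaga
Eif4ebp2: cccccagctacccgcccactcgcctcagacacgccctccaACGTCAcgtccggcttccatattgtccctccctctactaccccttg

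The next comparison asked which of these mRNAs depended on PI3K p110δ during the 4 h response. Against TCR alone and on the deposited scale, 3 of the 47 genes were higher with PI3Kdi (6.38%, against 12.7% of all genes) and 17 lower (36.2%, against 12.8% of all genes), with a median log2 fold change of -0.14. By limma 0 members changed more than 2-fold in either direction (0.499% of all genes were higher and 1.38% lower), also at an unadjusted p under 0.05, since member changes ranged from -0.52 to 0.61. On the TPM scale 8 were higher (17%, against 34.6% of all genes) and 4 lower (8.51%, against 5.04% of all genes), with a median of 0.04, below the median of 0.19 for all genes. After quantile normalisation 3 were higher (6.38%, against 11.8% of all genes) and 4 lower (8.51%, against 10.3% of all genes). The 4 that were lower on the deposited scale, under TPM scaling and under quantile normalisation were Eif3g, Eif4ebp1, Eif5a and Eif6, and the 3 that were higher on each of these were Eif1b, Eif4e3 and Eif5a2. Because TPM scaling moved the fold changes up here, a rise could hardly be lost on that scale. Leaving out PI3Kdi replicate 3 reduced the lower genes from 17 to 11.

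Eif4ebp1 showed the largest fall with PI3Kdi. Its level was 129, 115 and 113 FPKM with the inhibitor, below all TCR cultures (158 to 190.1 FPKM) and above all unstimulated ones. The log2 fold change against TCR was -0.52 (SE 0.07, adjusted p = 9.7e-05), or -0.34 on the TPM scale. Eif6 was at 115, 105 and 114 FPKM, also between the unstimulated and the TCR cultures (log2 fold change -0.47 with SE 0.06, adjusted p = 0.000119, and -0.28 on the TPM scale). Eif5a was at 844, 803 and 836 FPKM against 1041 ± 68.9 FPKM (SD, n = 3) with TCR alone (log2 fold change -0.33 with SE 0.06, adjusted p = 0.00109). Eif3g was at 186, 158 and 166 FPKM against 213 ± 17 FPKM (log2 fold change -0.33 with SE 0.07, adjusted p = 0.00224), and Eif3c was at 277, 285 and 279.9 FPKM against 344 ± 2.74 FPKM (log2 fold change -0.29 with SE 0.05, adjusted p = 0.000332), although the latter did not pass on the TPM scale (-0.11, adjusted p = 0.0901). Smaller falls of Eif4e (-0.20), Eif4a1 (-0.26), Eif2s1 (-0.18) and Eif1 (-0.18) on the deposited scale did not pass on the TPM scale, where Eif2s1 and Eif1 lay at 0.00. Among the 12 eIF3 genes 7 fell (12.8% of all genes) and 5 did not pass on the deposited scale. Eif3g alone of them passed as a fall on the TPM scale (5.04% of all genes).

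Of the 5 genes that fell after TCR stimulation, Eif4e3 and Eif5a2 were higher with PI3Kdi than with TCR alone. Both comparisons share the TCR cultures, and the same overlap was not counted over all genes. Eif4e3 was at 16.1, 17.6 and 15.6 FPKM, above all TCR cultures (9.22 to 12.4 FPKM) and well below the unstimulated ones (log2 fold change 0.61 with SE 0.09, adjusted p = 0.000244). Eif5a2 was at 2.6, 2.79 and 2.56 FPKM, above all TCR cultures (log2 fold change 0.57 with SE 0.15, adjusted p = 0.0111). Eif4ebp2 was at 33.5, 35.9 and 36.1 FPKM with a log2 fold change of 0.22 (SE 0.09), which did not pass (adjusted p = 0.0757). It passed with the replicate number as a block in the model (adjusted p = 0.038), on the TPM scale (0.40, adjusted p = 0.00731) and without TCR replicate 2 (0.27, adjusted p = 0.0483). Eif1b, which had not passed after TCR stimulation, was at 49.1, 48 and 40.9 FPKM against 40.4, 34.3 and 38.7 FPKM with TCR alone. The groups were separated by a small gap (log2 fold change 0.28 with SE 0.08, adjusted p = 0.0184), and the call was lost without TCR replicate 2 (0.21), PI3Kdi replicate 1 (0.23) or PI3Kdi replicate 2 (0.25). Of the other core factors, Eif4a2, Eif4g1, Eif3a and Eif2b5 did not pass, with log2 fold changes of -0.04, -0.08, -0.08 and -0.13.

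**Figure D4:**
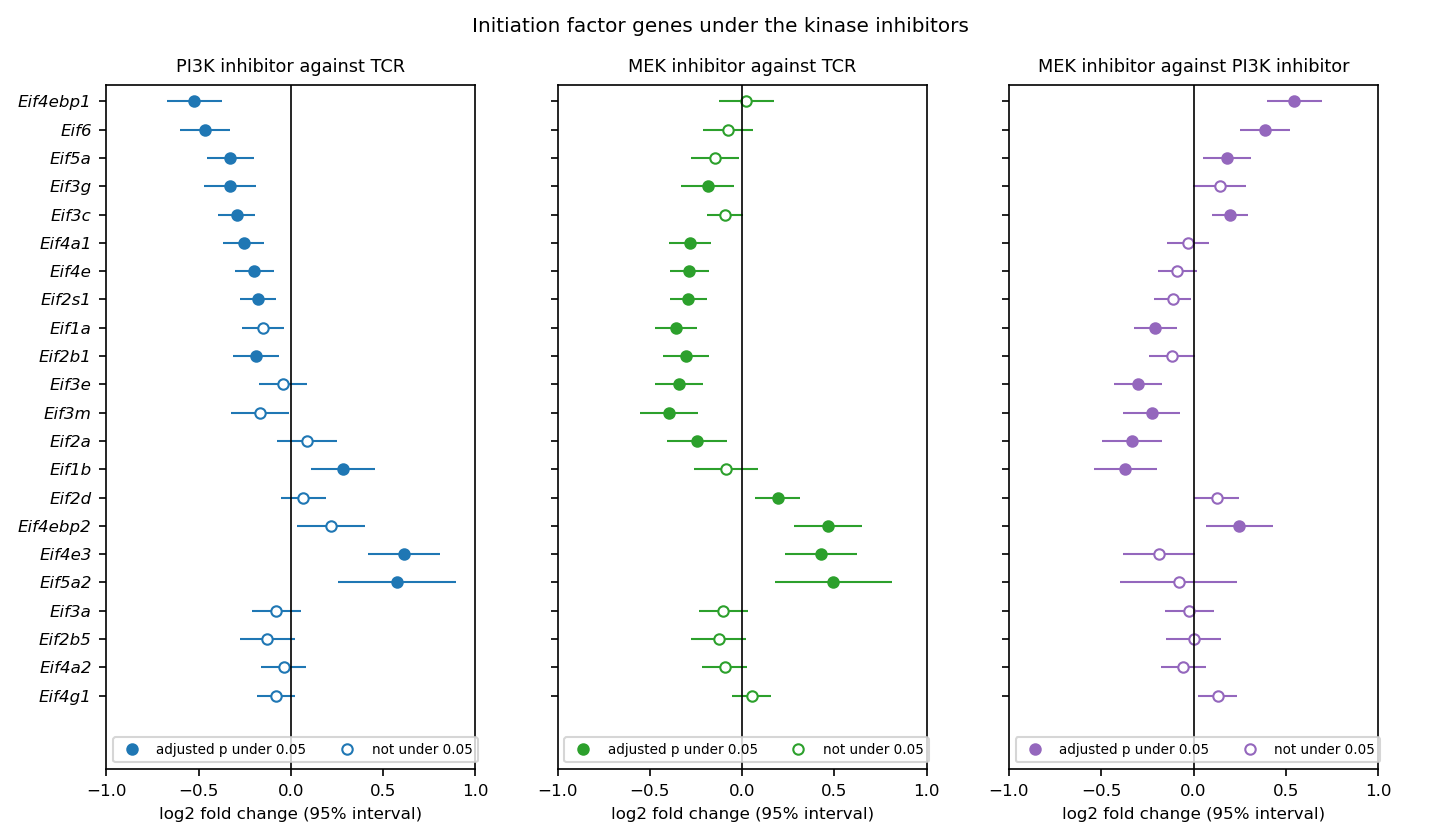
Log2 fold change with its 95% interval for 22 genes in the 3 comparisons that involve an inhibitor, on the deposited scale. Filled points passed at an adjusted p under 0.05. Eif4ebp1 and Eif6 fell with PI3Kdi (-0.52 and -0.47) and were higher with MEKi than with PI3Kdi (0.55 and 0.39). With MEKi against TCR neither passed on this scale, although both passed as rises on the TPM scale. The falls of Eif4a1, Eif4e, Eif2s1, Eif1a, Eif2b1, Eif3e and Eif3m with MEKi did not pass on the TPM scale.

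With the MEK inhibitor, 4 of the 47 genes were higher than with TCR alone (8.51%, against 18.9% of all genes) and 16 lower (34%, against 18.2% of all genes) on the deposited scale, with a median log2 fold change of -0.10. By limma 0 members changed more than 2-fold in either direction (0.98% of all genes were higher and 2.51% lower), also at an unadjusted p under 0.05. On the TPM scale 23 were higher (48.9%, against 50.2% of all genes) and 0 lower by limma (5.88% of all genes, and 1 member at an unadjusted p under 0.05), with a median of 0.16 against 0.26 for all genes, so none of the 16 falls held on that scale. After quantile normalisation 8 were higher (17%, against 18.8% of all genes) and 7 lower (14.9%, against 15.5% of all genes). The 4 rises, Eif2d, Eif4e3, Eif4ebp2 and Eif5a2, passed on the deposited scale, under TPM scaling and under quantile normalisation. Here too the TPM scale moved the fold changes up, so it could hardly cost a rise its call. These 4 genes are among the 5 that fell after TCR stimulation, a comparison that shares the TCR cultures, which by itself favours opposite directions. The same overlap was not counted over all genes, so it is not shown to be particular to these members. Leaving out MEKi replicate 3 reduced the rises from 4 to 2.

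Eif4ebp2 was at 40.3, 42.7 and 42.3 FPKM with MEKi, above all TCR cultures (26.7 to 32.6 FPKM) and overlapping the lowest unstimulated one (log2 fold change 0.46 with SE 0.09, adjusted p = 0.000709). Eif4e3 was at 14.5, 14.3 and 14.5 FPKM, above the TCR cultures (log2 fold change 0.43 with SE 0.09, adjusted p = 0.0022). Eif5a2 was at 2.34, 2.43 and 2.74 FPKM (log2 fold change 0.49 with SE 0.15, adjusted p = 0.0178), a call that was lost without TCR replicate 1 (0.32) or MEKi replicate 3 (0.43). Eif2d was at 24.1, 24.2 and 26.8 FPKM (log2 fold change 0.19 with SE 0.06, adjusted p = 0.016), a call that was lost without MEKi replicate 3 (0.14). Eif4ebp1 was at 165, 175 and 181 FPKM, all within the range of the TCR cultures. It did not pass on the deposited scale (log2 fold change 0.02, 95% interval -0.12 to 0.17, adjusted p = 0.823). It passed as a rise with TPM scaling (0.28, adjusted p = 0.000382) and with quantile normalisation (0.16, adjusted p = 0.0372). Eif6 at 146, 141 and 151 FPKM did not pass on the deposited scale (log2 fold change -0.08, adjusted p = 0.363) and changed sign with TPM scaling (0.18, adjusted p = 0.0099).

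The falls with MEKi were largest for 2 eIF3 genes and Eif1a. Eif3m was at 158, 169 and 159 FPKM against 224, 218 and 198 FPKM with TCR alone (log2 fold change -0.40 with SE 0.07, adjusted p = 0.000757, and -0.13 on the TPM scale, where it did not pass). Eif1a was at 81.7, 84.8 and 83 FPKM against 103, 113 and 104 FPKM (log2 fold change -0.36 with SE 0.05, adjusted p = 0.000145). Eif3e was at 199.7, 205 and 202 FPKM, below all TCR cultures and close to the unstimulated ones (log2 fold change -0.34 with SE 0.06, adjusted p = 0.0005). Eif2b1, for the regulatory alpha subunit of eIF2B, and Eif2s1 followed with -0.31 and -0.29. Eif4e was at 81.2, 85.5 and 82.3 FPKM (log2 fold change -0.29 with SE 0.05, adjusted p = 0.000465) and Eif4a1 at 794 ± 6.71 FPKM (SD, n = 3, with log2 fold change -0.28), and on the TPM scale both lay at -0.02. Of the 12 eIF3 genes 8 fell on the deposited scale (18.2% of all genes) and 4 did not pass, and none passed as a fall on the TPM scale (5.88% of all genes). Eif4g1, Eif4a2, Eif3a, Eif2b5 and Eif5a did not pass, with log2 fold changes of 0.05, -0.09, -0.10, -0.13 and -0.15 on the deposited scale. Eif4g1 passed as a rise with TPM scaling (0.31, adjusted p = 0.000515) and with quantile normalisation (0.17, adjusted p = 0.0296), and Eif4a2 with TPM scaling (0.17, adjusted p = 0.0428).

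Whether the inhibitors differed was tested directly, since both effects were taken against the same TCR cultures. Of the 47 genes, 6 were higher with MEKi than with PI3Kdi (12.8%, against 14.5% of all genes) and 5 lower (10.6%, against 14.4% of all genes), shares near those of all genes. By limma 0 members differed more than 2-fold (1.39% of all genes were higher and 1.71% lower), also at an unadjusted p under 0.05. On the TPM scale 15 members were higher (31.9%, against 21.1% of all genes) and 3 lower (6.38%, against 9.24% of all genes). Eif4ebp1 showed the largest difference, at 174 ± 8.04 FPKM with MEKi and 119 ± 8.44 FPKM with PI3Kdi (SD, n = 3, with log2 difference 0.55, SE 0.07, adjusted p = 3.54e-05). Eif6 was at 146 ± 4.98 and 111 ± 5.2 FPKM (log2 difference 0.39 with SE 0.06, adjusted p = 0.000315). Eif3c was at 322 ± 13.3 and 281 ± 4.34 FPKM (0.20, adjusted p = 0.00433), and Eif5a at 939 ± 29.9 and 828 ± 21.6 FPKM (0.18, adjusted p = 0.0336). These 4 were higher with MEKi on the deposited scale, under TPM scaling and under quantile normalisation. In this comparison the TPM scale also moved the differences up, so a higher level could hardly be lost on it. Eif4ebp2 was higher by 0.25 (adjusted p = 0.0414), but the call was lost after quantile normalisation and when any 1 library of these groups was left out (0.21 to 0.27).

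In the opposite direction, Eif1b was at 35.5 ± 2.11 FPKM with MEKi and 46 ± 4.41 FPKM with PI3Kdi (log2 difference -0.37 with SE 0.08, adjusted p = 0.00301). Eif2a, for a factor that can bring initiator tRNA to the ribosome without eIF2, was at 28.4, 28.3 and 26.6 FPKM against 33.9, 38.2 and 32.9 FPKM (log2 difference -0.33 with SE 0.08, adjusted p = 0.0043). Eif3e was at 202 ± 2.49 and 249 ± 13.7 FPKM (log2 difference -0.30 with SE 0.06, adjusted p = 0.00176). These 3 kept their call on the TPM scale, while Eif3m (-0.23) and Eif1a (-0.21) did not. The call for Eif3m was lost without PI3Kdi replicate 1 (-0.17), MEKi replicate 1 (-0.21) or MEKi replicate 3 (-0.21), and that for Eif5a without PI3Kdi replicate 2 (0.16), PI3Kdi replicate 3 (0.19), MEKi replicate 2 (0.17) or MEKi replicate 3 (0.16). For Eif4e and Eif4a1 the difference between inhibitors did not pass, with intervals of -0.19 to 0.02 and -0.14 to 0.09 on the log2 scale. Leaving out PI3Kdi replicate 2, MEKi replicate 2 or MEKi replicate 3 reduced the higher genes from 6 to 3.

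Ratios between members within a culture do not depend on a factor applied to a whole library, as in TMM or TPM scaling. Quantile normalisation is not such a factor and can change them. The ratio of Eif4ebp1 to Eif4e in FPKM was 1, 0.988 and 0.992 in unstimulated cells and 1.83, 1.55 and 1.7 in the TCR group. With PI3Kdi it was 1.48, 1.24 and 1.34, and with MEKi 2.03, 2.05 and 2.2. All unstimulated values lay below all others, and all MEKi values lay above all others. The ratio of Eif4ebp2 to Eif4e was 0.81 ± 0.109 (SD, n = 3) in unstimulated cells, 0.3 ± 0.0368 in the TCR group, 0.399 ± 0.0238 with PI3Kdi and 0.503 ± 0.00896 with MEKi, with no overlap between any groups. It was thus lower after TCR stimulation and higher with PI3Kdi than with TCR alone, where the ratio of Eif4ebp1 moved the other way, and with MEKi both ratios were higher than with TCR alone. The 3 binding protein genes together, relative to Eif4e, came to 1.93 ± 0.109, 2.07 ± 0.12 and 1.83 ± 0.119 in the unstimulated, TCR and PI3Kdi groups, which overlapped, and to 2.7 ± 0.108 with MEKi, above all of them. With 3 cultures in each group an exact permutation test cannot go below 0.10, so these ratios are given as descriptions.

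The ratio of Eif4e to Eif4e3 was 1.66, 1.83 and 1.8 in unstimulated cells and 11.3, 9.46 and 7.92 after TCR stimulation. With PI3Kdi it was 5.39, 5.28 and 5.44 and with MEKi 5.59, 6 and 5.68, values between those of the other groups. The ratio of Eif5a to Eif5a2 was 267 ± 30 (SD, n = 3) in unstimulated cells, 613 ± 185 in the TCR group, 313 ± 21.8 with PI3Kdi and 376 ± 22.1 with MEKi, and the low level of Eif5a2 widens the spread. That of Eif1 to Eif1b was 7.57 ± 0.487, 16.5 ± 1.86, 12 ± 1.19 and 14.7 ± 0.839 in the same order. The ratio of Eif4a1 to Eif4a2 moved less, from 10.9 ± 0.2 in unstimulated cells to 9.95 ± 0.757 in the TCR group, where the groups overlapped, and to 8.56 ± 0.358 and 8.72 ± 0.434 with the inhibitors.

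**Figure D5:**
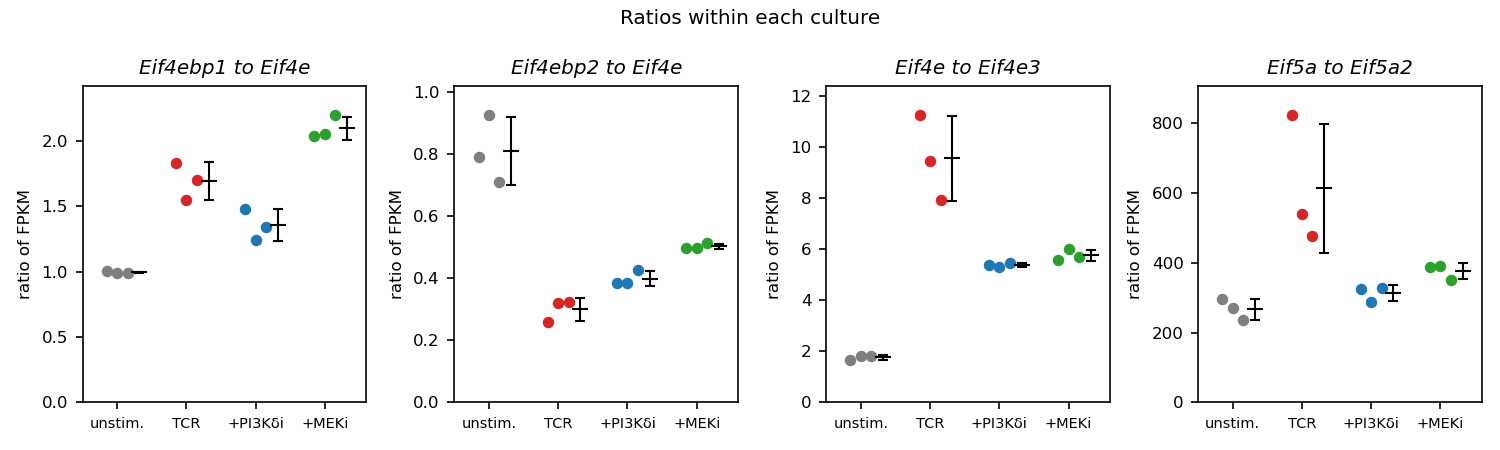
Ratio of FPKM between members in each culture (points), with mean and SD of the 3 cultures of each group (black bars). Eif4ebp1 to Eif4e rose from 0.994 to 1.69 after TCR stimulation and lay at 1.35 with PI3Kdi and 2.09 with MEKi, while Eif4e to Eif4e3 was highest in the TCR group at 9.54.

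Regulators of these factors were examined as a list of 41 other genes of translation, all of which are in the table. On the deposited scale 20 rose (33.6% of all genes), 6 fell (34.9% of all genes) and 15 did not pass after TCR stimulation, with a median log2 fold change of 0.21, whereas on the TPM scale 7 rose (15.3% of all genes) and 21 fell (60.9% of all genes), with a median of -0.19. Of the 4 eIF2 kinases, Eif2ak3, which encodes the endoplasmic reticulum kinase PERK, fell from 33.9, 35.5 and 37.1 to 20.9, 22.5 and 21.1 FPKM (log2 fold change -0.72 with SE 0.06, adjusted p = 2.66e-08). Eif2ak2, for the RNA-activated kinase PKR, fell from 11.1 ± 1.41 to 6.5 ± 1.22 FPKM (SD, n = 3, with log2 fold change -0.77, adjusted p = 0.000137). Eif2ak1 and Eif2ak4 did not pass (0.08 and 0.19), although Eif2ak1 passed as a fall on the TPM scale (-0.33) and Eif2ak4 as a rise with quantile normalisation (0.29). Ppp1r15a, whose product directs a phosphatase to eIF2, rose from 10.4, 9.66 and 9.36 to 43.6, 42.3 and 42 FPKM, the largest change of the list (log2 fold change 2.11 with SE 0.06, adjusted p = 6.6e-13). Mknk2, for a kinase of eIF4E, fell from 85.8, 87.8 and 74.6 to 43.4, 38.1 and 41.8 FPKM (log2 fold change -1.01 with SE 0.08, adjusted p = 2.55e-08), and Mknk1 fell by 0.27 on the log2 scale. Pdcd4, which encodes an inhibitor of eIF4A, fell from 6.48, 6.53 and 6.33 to 3.29, 3.43 and 3.63 FPKM (log2 fold change -0.88 with SE 0.12, adjusted p = 1.65e-05). The rises and falls named here had the same direction on the TPM scale.

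The inhibitors were compared for the same list. With PI3Kdi, 4 of the 41 genes were higher than with TCR alone (12.7% of all genes) and 10 lower (12.8% of all genes) on the deposited scale. On the TPM scale 12 were higher (34.6% of all genes) and 2 lower (5.04% of all genes). With MEKi, 3 were higher (18.9% of all genes) and 10 lower (18.2% of all genes) on the deposited scale. On the TPM scale 23 were higher (50.2% of all genes) and 2 lower (5.88% of all genes). Pdcd4 was at 7.63, 8.02 and 6.83 FPKM with PI3Kdi, above every culture of the other groups, and at 3.32, 3.11 and 4.54 FPKM with MEKi, where it did not pass against TCR. The log2 fold change with PI3Kdi was 1.09 (SE 0.12, adjusted p = 2.78e-05), and the difference between MEKi and PI3Kdi was -1.03 (SE 0.12, adjusted p = 2.39e-05). No member of the initiation factor set changed by as much with either inhibitor. Eif2ak3 was at 29.1 ± 0.629 FPKM with PI3Kdi and 31 ± 1.09 FPKM with MEKi (SD, n = 3), above the TCR cultures in both cases (log2 fold changes 0.43 and 0.52). Mknk2 was at 54.5 ± 4.86 and 63.2 ± 2.88 FPKM, also above them (0.40 and 0.62). Ppp1r15a was lower with PI3Kdi (log2 fold change -0.47, adjusted p = 0.000138) and with MEKi (-0.22, adjusted p = 0.0155), although the latter lay at 0.04 on the TPM scale. Eif2ak1, Eif2ak2, Eif2ak4 and Mknk1 did not pass against TCR with either inhibitor on the deposited scale, but Eif2ak1, Eif2ak2 and Mknk1 passed as higher on the TPM scale with PI3Kdi (0.30, 0.44 and 0.41) and with MEKi (0.20, 0.48 and 0.27).

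The 3 Argonaute genes that carry old Eif2c symbols act in RNA silencing and are not initiation factors. Eif2c2, now named Ago2, was at 17.5, 16.9 and 12.7 FPKM before and at 24.2, 29.4 and 30.3 FPKM after TCR stimulation (log2 fold change 0.84 with SE 0.13, adjusted p = 3.37e-05, and 0.43 on the TPM scale). It lay at 28.1 ± 3.94 FPKM with PI3Kdi and 27.1 ± 2.12 FPKM with MEKi (SD, n = 3), and neither passed against TCR (log2 fold changes 0.00 and -0.04). Eif2c1 and Eif2c3, now Ago1 and Ago3, did not pass in any comparison on the deposited scale.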

How the data were processed

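RNA from 12 CTL cultures (4 groups, 3 replicates each) was sequenced as poly(A)-selected, stranded, paired-end libraries. The authors aligned reads to mm10 with STAR 2.4.2a, counted RefSeq genes with Subread 1.5.0, removed low-count genes, scaled libraries by TMM and deposited FPKM values computed with edgeR, which were used here. The strand setting of the counting is not given in the sources used here. Counts could not be recovered from the FPKM. Steps between low values gave an effective depth of about 7840000 to 13240000 reads per library, but only 44.4% to 55.0% of low values lay within 0.15 of a whole read, so precision is given by the spread of replicates.

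All 11022 genes were fitted in limma 3.58.1 (R 4.3.3) with an intensity trend on log2(FPKM + 0.1), with 4 group means and Benjamini-Hochberg adjustment over all genes in each contrast. Fold changes are on that scale and understate changes of low genes. Fits were tested on simulated data. Scaling, pseudocount, low-value filter, trend, samples in the fit, a replicate block and leaving out each replicate were varied. Members and gene lists were chosen with earlier results of these data known. Genes named in full were those past 2-fold, the 5 largest rises and 5 largest falls among members that passed in each contrast, and 11 core genes whatever they did; of other translation genes, those past 2-fold, the eIF2 kinases, Mknk1, Mknk2 and Pdcd4. The sources used here do not state whether equal replicate numbers share a mouse. Across genes, the residuals of cultures with the same number were correlated at 0.451, 0.376 and 0.239 for PI3Kdi and TCR, 0.153, 0.122 and 0.182 for MEKi and TCR, and 0.137, 0.147 and 0.149 for MEKi and PI3Kdi, so these met the rule for pairing. The values reported come from the fit without a replicate term, and the block was an alternative. Uniqueness was examined as the share of distinct 100-base stretches of a gene's annotated transcripts that are also in transcripts of other genes. Promoter windows came from RefSeq (GRCm38.p6).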

Additional observations from a re-analysis of the deposited data

How the results depend on the processing

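The scaling of the libraries moved the counts most. After TCR stimulation the TPM scale gave 10 members higher and 22 lower, 3 of the latter past 2-fold. Quantile normalisation gave 20 higher (42.6%, against 31.3% of all genes) and 11 lower (23.4%, against 37% of all genes). For PI3Kdi against TCR the TPM scale gave 8 higher and 4 lower, and quantile normalisation 4 lower (8.51%, against 10.3% of all genes). For MEKi against TCR TPM scaling gave 23 and 0. Quantile normalisation gave 8 higher (17%, against 18.8% of all genes) and 7 lower (14.9%, against 15.5% of all genes). The larger share of lower members seen with each inhibitor on the deposited scale was thus absent under quantile normalisation. For MEKi against PI3Kdi the TPM scale gave 15 and 3. With TPM scaling, 7 members that rose after TCR stimulation passed as falls, namely Eif1ad, Eif2b5, Eif3b, Eif3e, Eif3k, Eif4enif1 and Eif4g3. Among the genes named in full, the TPM scale changed the sign after TCR stimulation for Eif2b5 (-0.23), Eif2s1 (-0.10), Eif3a (-0.17), Eif4a1 (-0.00646) and Eif5a (-0.00128). It did so for Eif2s1 with PI3Kdi (0.00371) and for Eif4a2 (0.17) and Eif6 (0.18) with MEKi. Quantile normalisation changed the sign of Eif4a1 after TCR stimulation (-0.0294). Only Eif2b5 after TCR stimulation and Eif4a2 and Eif6 with MEKi passed with the new sign. Leaving out each replicate in turn gave 30 to 32 higher and 5 to 6 lower after TCR stimulation, 2 to 3 and 11 to 19 with PI3Kdi (11 without PI3Kdi replicate 3), 2 to 4 (2 without MEKi replicate 3) and 12 to 17 with MEKi, and 3 to 6 (3 without PI3Kdi replicate 2, MEKi replicate 2 or MEKi replicate 3) and 4 to 5 between the inhibitors. With the replicate block, Eif4ebp2 passed with PI3Kdi (log2 fold change 0.22, adjusted p = 0.038), which made 4 genes higher in place of 3, and no other call of a member changed. For TCR against unstimulated, where same-numbered cultures correlated at 0.105, 0.153 and 0.004 and did not meet the rule for pairing, the replicate block gave 32 higher and 5 lower. Over 69 named gene results and 966 alternatives, 894 kept the side of the threshold, 49 lost and 14 gained a call, and 9 changed sign. A change of sign was counted only where either fit passed. Results that passed in neither fit could change sign and still be among the 894. The cause was not tested. With 3 cultures per group, small changes of low genes such as Eif5a2 are the least certain.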

Other observations

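Genes of later steps of translation also changed. Of 7 elongation genes, 6 rose (33.6% of all genes) and 1 fell (34.9% of all genes) after TCR stimulation on the deposited scale. With TPM scaling 2 rose (15.3% of all genes), Eef1b2 and Eef1e1, and 1 fell (60.9% of all genes). On that scale Eef1a1, Eef1d, Eef1g and Eef2 lay between -0.07 and -0.11 and did not pass. With quantile normalisation 1 rose (31.3% of all genes) and 4 fell (37% of all genes), including Eef1a1 (-0.58), Eef1g (-0.15) and Eef2 (-0.14). Eef1e1, which encodes a component of the tRNA synthetase complex, rose from 75.3 ± 3.03 to 168 ± 5.63 FPKM (SD, n = 3, with log2 fold change 1.16, SE 0.07, limma adjusted p = 1.29e-09), and 0.75 on the TPM scale. Eef2k, for the kinase that inhibits the elongation factor eEF2, fell from 5.92 ± 0.462 to 2.66 ± 0.215 FPKM (log2 fold change -1.12 with SE 0.10, limma adjusted p = 1.65e-07), and -1.53 on the TPM scale. With MEKi it lay at 3.83 ± 0.127 FPKM, above TCR alone (log2 fold change 0.51, limma adjusted p = 0.00142), and with PI3Kdi at 2.83 ± 0.0862 FPKM, where it did not pass. The difference between the inhibitors was 0.43 (limma adjusted p = 0.00608).

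Both hypusine enzyme genes, whose products modify eIF5A, rose after TCR stimulation on the deposited scale. Dhps rose by 0.72 on the log2 scale, and by 0.31 on the TPM scale, and Dohh by 0.46, which was 0.05 on the TPM scale and did not pass there. Paip2, for a repressor that binds the poly(A)-binding protein, was singled out after its values were seen. It was at 41.3, 42.9 and 35.8 FPKM with TCR alone and at 56.4, 57.9 and 54.1 FPKM with PI3Kdi, in groups that did not overlap (log2 fold change 0.49 with SE 0.07, limma adjusted p = 0.000274). With MEKi it was at 42, 35.3 and 39.6 FPKM, and the difference between MEKi and PI3Kdi was -0.53 (SE 0.07, limma adjusted p = 9.23e-05).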
